A study of Mus musculus with 6 samples.

Results

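Integrin, laminin and collagen genes were examined in 6 RNA sequencing libraries of BUMPT cells, a mouse kidney proximal tubule epithelial line, 3 labelled tRF-Val and 3 labelled NC. The first label stands for tRF-Val-TAC-004, which is cut from a valine tRNA. Whether cells received that fragment or an agent against it is not in the labels, and neither is the meaning of NC. Separate cultures are not stated for libraries of 1 group, so p-values here reflect the spread among the libraries alone, and that spread may be technical. The families were chosen with earlier results of these data known. Genes were then taken by symbol: any symbol that begins like an integrin alpha or beta chain, a laminin chain or a collagen chain. Of 11230 gene symbols with mouse rows, 33 met this rule. Of the 33, 31 encode such chains: 7 integrin alpha, 7 integrin beta, 7 laminin and 10 collagen chains. The other 2 share only the letters of the name, Itgb3bp, which encodes a centromere protein, and Col4a3bp, which encodes a ceramide transfer protein. They are given once below and left out of the counts.

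Epithelial cells stand on a basement membrane, a thin sheet built on a laminin network and a collagen IV network. Laminins are trimers of an alpha, a beta and a gamma chain, and collagens are trimers wound into a triple helix. Integrins are receptors made of 1 alpha and 1 beta chain that bind these proteins outside the cell and link them to the cytoskeleton. In the tubule they hold the epithelium in place, and detached or injured tubule cells are known for redistributing them.

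Values of libraries 1, 2 and 3 of a group are given in that order. The data are abundance values per transcript, treated here as scaled to the library. They were added over the listed transcripts of each gene and are called values. Whether they are FPKM or TPM is not stated, and the sequencing depth is unknown. Each mouse row had a mean of at least 0.5 in 1 or both groups. A row under that level in 1 group is therefore listed through the other group alone. Summed over mouse rows the values came to 420592, 444174 and 435162 in the tRF-Val libraries, and to 386971, 387632 and 389116 in the NC libraries. NC 3 stood apart from every other library: its Pearson r over 10400 genes was 0.843 to 0.875 with the tRF-Val libraries and 0.903 and 0.915 with NC 1 and NC 2, while r between NC 1 and NC 2 was 0.974. Mitochondrially encoded transcripts took 3.17% to 5.30% of the values in tRF-Val libraries, 6.33% and 6.59% in NC 1 and NC 2, and 17.5% in NC 3. Fold changes without NC 3 are therefore also given for many of the chains. Of 11 markers of proximal tubule only Aqp1 had a listed row, whereas 11 of 12 markers of renal or simple epithelium did. The renal or simple epithelium markers summed to 929, 1112 and 1020 in the tRF-Val libraries, against 837, 823 and 614 in the NC libraries. Most of that sum came from the keratins Krt8 and Krt18, which were higher in each tRF-Val library. Gene by gene there was no common direction: of 10 tested, 5 had positive and 5 negative fold changes, and Tjp1 was lower in each tRF-Val library. Of the other cell types, 2 of 9 stromal, 1 of 7 endothelial, 5 of 10 leukocyte and 1 of 4 synovial lining markers had rows. The summed value was 1.01 to 1.76 in tRF-Val and 0.85 to 1.26 in NC for stromal markers, and 2.72 to 5.02 in tRF-Val and 6.25 to 8.03 in NC for the endothelial one. It was 34.6 to 41.3 in tRF-Val and 8.51 to 24.3 in NC for leukocyte markers, mostly Cd14, and 2.60 to 4.09 in tRF-Val and 4.10 to 7.60 in NC for the synovial one, Clic5. The part of these markers in the results was not tested.

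No integrin, laminin or collagen chain passed the test between tRF-Val and NC. Genes with a mean value of at least 1 were tested, which took in 29 of the 31 chains. In limma's moderated test on log2(value + 1), with the Benjamini-Hochberg adjustment over all 10400 genes, 0 of 29 chains had an adjusted p under 0.05. Over all genes 0.202% were lower and 0.0577% higher at that threshold, 21 and 6 genes; after scaling the libraries to a common median the same counts were 23 and 15. At an unadjusted p under 0.05, 4 of 29 chains were lower and 0 were higher, where 15.7% and 12.2% of all genes were. The 4 were Itga6, Itgb1, Lamc1 and Col4a5. Every tRF-Val library lay below every NC library for 3 of 29 chains, Itga6, Itgb1 and Lamb1, against 22.1% of all genes. Every tRF-Val library lay above every NC library for 1 chain, Itgb5, against 20.3% of all genes. The shares of chains were thus near or below the shares of all genes. The fold change, the difference between tRF-Val and NC means of log2(value + 1), was negative in 21 of 29 chains with a median of -0.13, against 48.9% negative and a median of 0.01 over all genes. Because the libraries are bulk samples, fewer cells that carry a transcript cannot be told apart from less of it per cell.

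**Figure D1:**
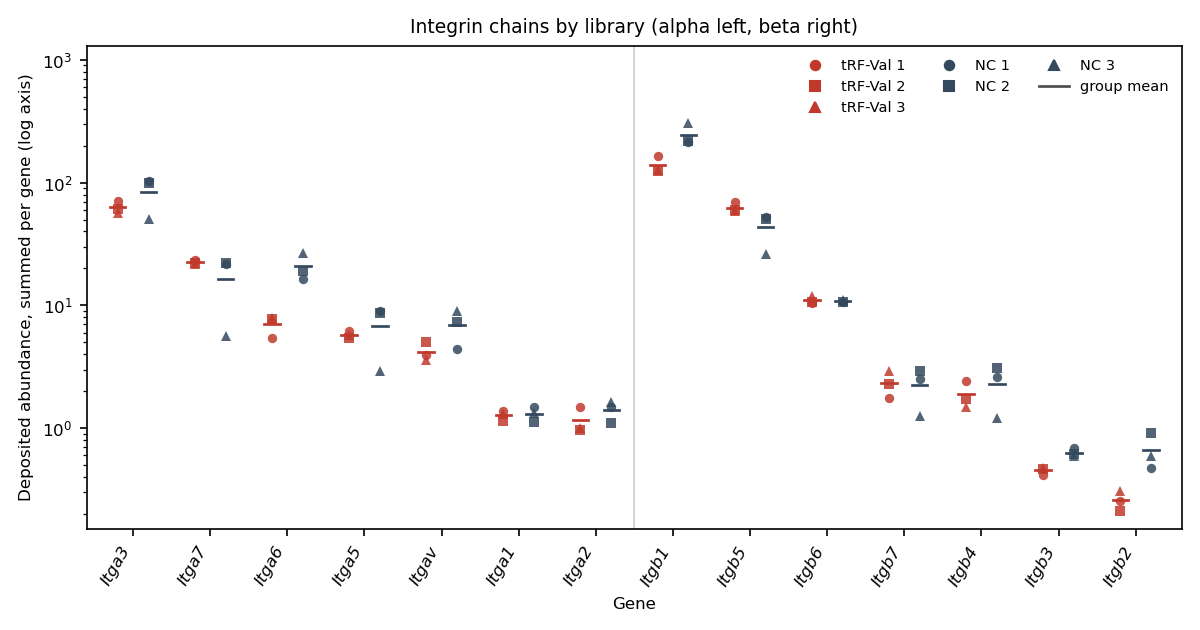
Value of each integrin chain in each library, on a log axis, with the 3 tRF-Val libraries in red left of the 3 NC libraries in dark blue and a bar at each group mean. Itga6 and Itgb1 lie lower in every tRF-Val library than in any NC library and Itgb5 lies higher; NC 3 (dark blue triangle) often falls far from NC 1 and NC 2.

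The chain with the smallest p was Itga6, which encodes integrin alpha6, a laminin receptor that pairs with beta1 or, in hemidesmosomes, with beta4. Its gene, ENSMUSG00000027111.15, occupies chr2:71745616-71858416 on the plus strand (GRCm38). Its value was 5.46, 7.71 and 7.89 in the tRF-Val libraries, against 16.4, 19.1 and 26.9 in the NC libraries. The groups did not overlap, and the highest tRF-Val library was below the lowest NC library by more than the SD within either group. That gap was smaller than the range within NC. Means were 7.02 ± 1.36 in tRF-Val and 20.8 ± 5.48 in NC (SD, n = 3 each), a log2 fold change of -1.43 (SE 0.240) with a limma adjusted p of 0.0633, which missed the threshold. Without NC 3 the fold change was -1.23 and the adjusted p 0.0418, below the threshold. In every alternative fit on gene values the fold change stayed negative, between -1.58 and -0.88, and the adjusted p ran from 0.0418 to 0.225.

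The alpha6 and alpha3 chains each exist with alternative cytoplasmic tails, called A and B, that come from different exons and follow the same extracellular part. The coding parts of those exons are shown because transcripts with each tail were listed. They were read from GENCODE M21 transcripts of the same ID and version as the rows. Capitals mark in-frame codons matching GGNTTNTTNAANNG on the coding strand. That pattern is a loose spelling of the GFFKR motif, which lies just inside the membrane in integrin alpha chains, and it also takes codons of other residues. The Itga6 pieces lie on the plus strand at chr2:71853534-71853638 (A) and chr2:71855854-71856012 (B), the Itga3 pieces on the minus strand at chr11:95046483-95046590 (A) and chr11:95045611-95045763 (B), all on GRCm38.
Itga6 A tail, 105 coding bases: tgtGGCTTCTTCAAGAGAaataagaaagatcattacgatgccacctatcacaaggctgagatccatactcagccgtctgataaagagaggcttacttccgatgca
Itga6 B tail, 159 coding bases: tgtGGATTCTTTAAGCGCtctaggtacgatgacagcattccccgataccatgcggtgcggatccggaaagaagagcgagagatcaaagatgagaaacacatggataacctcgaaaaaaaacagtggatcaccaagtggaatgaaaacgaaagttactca
Itga3 A tail, 108 coding bases: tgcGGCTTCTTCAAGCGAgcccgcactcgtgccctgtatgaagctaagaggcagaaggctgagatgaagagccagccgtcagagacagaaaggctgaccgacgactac
Itga3 B tail, 153 coding bases: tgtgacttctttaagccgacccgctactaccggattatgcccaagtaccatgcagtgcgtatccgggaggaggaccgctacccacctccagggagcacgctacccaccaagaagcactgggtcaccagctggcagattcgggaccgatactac

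The motif was found in frame in both Itga6 tails and in the Itga3 A tail, starting at base 4 of the piece, and these letters were not in the Itga3 B piece. No other motif was searched. Among 68288 coding exon pieces of 105 to 159 bases in the GENCODE basic set, 20 (0.0293%) match the loose pattern in frame, and they need not all encode GFFKR. Transcripts with the Itga6 A tail had a summed value of 5.46, 7.50 and 7.89 in the tRF-Val libraries, against 15.4, 15.2 and 22.5 in the NC libraries. The transcript with the B tail, Itga6-202, was listed at 0 in tRF-Val 1 and 3 and at 0.217 in tRF-Val 2, against 0.991, 3.87 and 4.40 in the NC libraries. The A tail sum was lower in every tRF-Val library. Itga6-202 was listed through NC alone, with means of 0.072 in tRF-Val and 3.09 in NC. Its lower tRF-Val mean was thus fixed by the listing, and the B tail shares rest on this transcript. The B tail made up 0%, 2.81% and 0% of Itga6 in the tRF-Val libraries, against 6.05%, 20.3% and 16.3% in the NC libraries. In the fit over 16314 single transcripts neither Itga6-201 (log2 fold change -1.18, limma adjusted p 0.116) nor Itga6-202 (-1.81, adjusted p 0.149) passed. Whether the values of 0 are failed estimates was not tested.

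Itgb1 encodes integrin beta1, the shared partner of most alpha chains that bind laminin, collagen and fibronectin, and had the highest value of the 31 chains. It was 165, 125 and 126 in the tRF-Val libraries, against 212, 217 and 303 in the NC libraries. The groups did not overlap, and NC 3 was the highest library. Means were 139 ± 22.7 in tRF-Val and 244 ± 51.2 in NC (SD, n = 3 each), with a log2 fold change of -0.81 (SE 0.204) and a limma adjusted p of 0.0940, which did not pass. Without NC 3 the fold change was -0.64 with an adjusted p of 0.0610. The listed alpha chains add up to less than Itgb1 in value: their sum was 113, 104 and 98.4 in the tRF-Val libraries, against 157, 158 and 97.9 in the NC libraries. That sum was lowest in NC 3, where Itgb1 was highest.

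Among alpha chains, Itga3, the partner of beta1 in a laminin receptor of the kidney epithelium, had the highest value. It was 70.6, 61.3 and 57.0 in the tRF-Val libraries, against 102, 98.7 and 50.6 in the NC libraries. NC 1 and NC 2 lay above every tRF-Val library and NC 3 below them all. With all libraries the log2 fold change was -0.35 (SE 0.293, limma adjusted p 0.456); without NC 3 it was -0.67 with an adjusted p of 0.0458, below the threshold. Without NC 3, 2 of 29 chains passed, Itga3 and Itga6, both lower and none higher, where 3.04% of all genes were lower and 2.75% higher. The B tail was a small part of Itga3 in each library, 1.39%, 0.333% and 0.0305% in the tRF-Val libraries and 0.504%, 1.17% and 0.288% in the NC libraries. The division between 2 transcripts with the A tail that start at different first exons shifted in 1 library alone: the shorter one, Itga3-202, was at 11.0, 11.5 and 9.43 in the tRF-Val libraries, and at 16.6, 82.0 and 6.90 in the NC libraries.

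Itga7, a laminin-binding chain best known from muscle, came next in the tRF-Val libraries. It was 23.6, 22.1 and 21.9 in the tRF-Val libraries, against 21.9, 22.0 and 5.61 in the NC libraries. All libraries other than NC 3 were close to one another. The log2 fold change of 0.63 (SE 0.495, limma adjusted p 0.420) became 0.04 without NC 3. In NC 3 the main transcript, Itga7-202, was at 0.00635, against 12.6 to 21.4 in the tRF-Val libraries and 19.6 and 18.8 in NC 1 and NC 2.

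Itga5, the alpha chain of the main fibronectin receptor, was 6.14, 5.41 and 5.72 in the tRF-Val libraries, against 9.02, 8.60 and 2.91 in the NC libraries. The pattern was that of Itga3, with NC 3 at the bottom, and the log2 fold change was -0.10 (SE 0.383) with all libraries and -0.54 without NC 3 (limma adjusted p 0.878 and 0.0574). Itga1 and Itga2, which bind collagen with beta1, were low and overlapped: Itga1 was 1.13 to 1.39 in tRF-Val and 1.13 to 1.48 in NC, and Itga2 was 0.972 to 1.50 in tRF-Val and 1.10 to 1.62 in NC. By mean value the alpha chains ran Itga3, Itga7, Itga6, Itga5, Itgav, Itga1 and Itga2 in tRF-Val, and Itga3, Itga6, Itga7, Itgav, Itga5, Itga2 and Itga1 in NC. Among neighbours, the ranges of Itga6 and Itga5 overlapped in tRF-Val, those of Itga6 and Itga7, of Itga7 and Itgav and of Itgav and Itga5 overlapped in NC, and those of Itga1 and Itga2 overlapped in both groups. This order assumes that the values are per transcript length, as StringTie gives them.

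Itgav encodes integrin alpha-v, which pairs with beta1, beta3, beta5, beta6 or beta8 and binds vitronectin, osteopontin and latent TGF-beta. As a gene it was 3.97, 5.05 and 3.61 in the tRF-Val libraries, against 4.43, 7.32 and 8.94 in the NC libraries, and the groups overlapped (log2 fold change -0.57, SE 0.268, limma adjusted p 0.221). Its listed transcripts ordered the groups differently. The full-length Itgav-201, of 7054 bases, was 1.21, 0.580 and 0.762 in the tRF-Val libraries, against 3.67, 4.23 and 7.75 in the NC libraries, with no overlap. A fragment of 463 bases, Itgav-205, was 2.45, 3.53 and 2.08 in the tRF-Val libraries, against 0.364, 2.51 and 1.05 in the NC libraries. With transcripts under 50% of the length of the longest one left out, a step chosen after the data were seen, the fold change of Itgav was -1.71 with a limma adjusted p of 0.0699, so it still did not pass.

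Itgb5, another partner of alpha-v, lay higher in tRF-Val. It was 69.8, 59.5 and 58.2 in the tRF-Val libraries, against 53.0, 50.5 and 26.4 in the NC libraries. The groups did not overlap, and the gap between tRF-Val 3 and NC 1, the nearest pair, was smaller than the SD within either group, 6.36 in tRF-Val and 14.7 in NC (n = 3 each). The log2 fold change was 0.58 (SE 0.285, limma adjusted p 0.233), and without NC 3 it was 0.26 (adjusted p 0.158). Itgb6, the epithelial chain whose pair with alpha-v activates latent TGF-beta, was nearly flat: 10.5, 10.6 and 11.8 in the tRF-Val libraries, against 10.6, 10.7 and 11.0 in the NC libraries, a log2 fold change of 0.02 (SE 0.142). Itgb3, the chain of the vitronectin receptor, was below the level for testing, at 0.413, 0.468 and 0.477 in tRF-Val and 0.692, 0.614 and 0.587 in NC. Itgb2, a leukocyte chain, was also untested, at 0.211 to 0.308 in tRF-Val and 0.477 to 0.916 in NC. Both lay lower in each tRF-Val library than in any NC library, but both were listed through NC alone. Their tRF-Val means, 0.453 for Itgb3 and 0.258 for Itgb2, were under the listing level of 0.5. A lower mean in tRF-Val was thus fixed by the listing.

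Itgb4, the hemidesmosome partner of alpha6, was low: 2.43, 1.74 and 1.47 in the tRF-Val libraries, against 2.59, 3.09 and 1.21 in the NC libraries. The groups overlapped and the log2 fold change was -0.16 (SE 0.280, limma adjusted p 0.722), or -0.43 without NC 3. Of its transcripts, Itgb4-202 was listed at 0 in tRF-Val 1, tRF-Val 3 and NC 3. It was listed through NC alone, with means of 0.059 in tRF-Val and 1.43 in NC. Itgb4-205 was higher in every tRF-Val library, at 2.43, 1.56 and 1.47, against 1.40, 0 and 1.21 in the NC libraries. Itgb7, a chain of lymphocyte integrins, was 1.76 to 2.89 in tRF-Val and 1.25 to 2.94 in NC. In the alpha6-beta4 pair the alpha chain was thus lower in each tRF-Val library while the beta chain overlapped, and in the alpha6-beta1 pair both chains were lower in each.

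**Figure D2:**
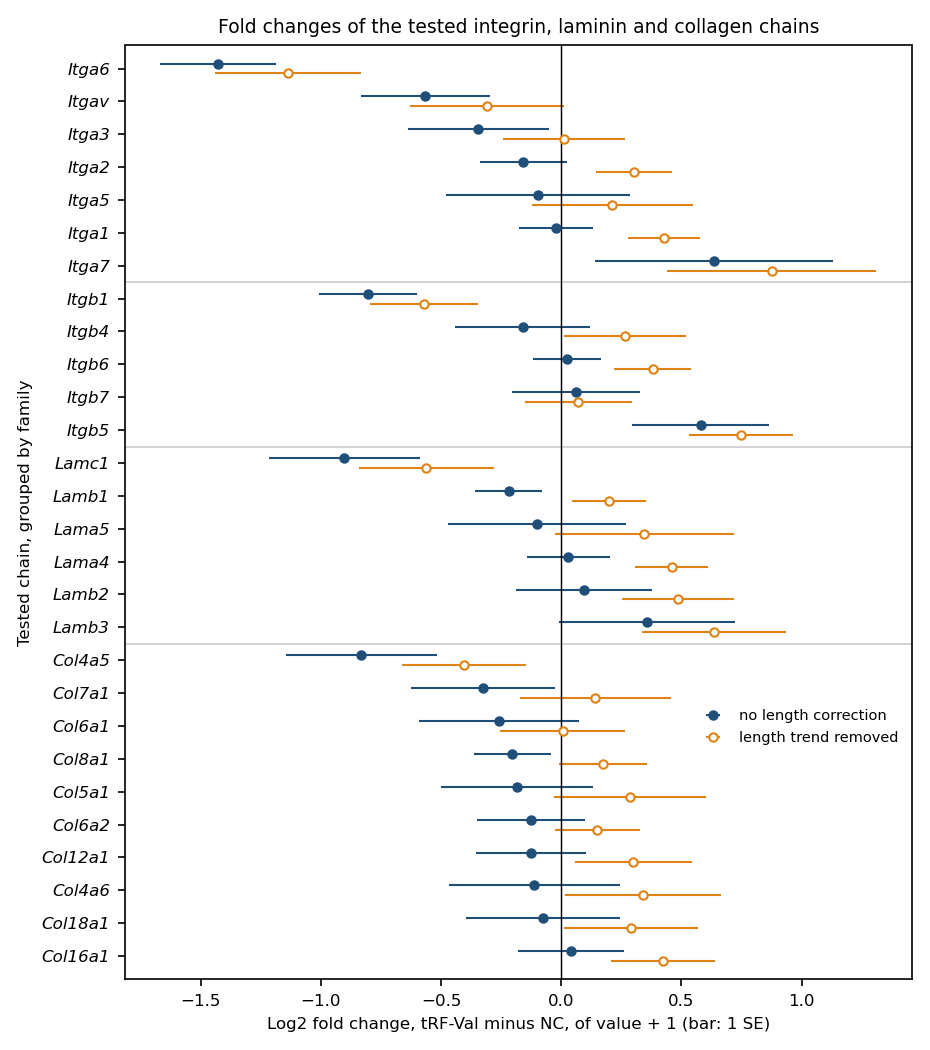
Log2 fold change, tRF-Val minus NC, of value + 1 for tested chains, grouped by family, with bars of 1 SE; filled points use the values as deposited and open points follow removal of each library's trend with transcript length. Most filled points are negative and most open points positive, and Itga6 lies farthest left in both.

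Laminin fold changes had no common direction with all libraries, with 4 of 7 negative and a median of -0.10. Without NC 3 all 7 were negative with a median of -0.15, where 5845 of 10400 genes were negative. With the length trend removed 1 of 7 was negative with a median of 0.35, where 4912 of 10400 genes were negative. Lamc1 encodes the gamma1 chain shared by most laminins and had the largest difference of the family: 19.8, 14.3 and 26.6 in the tRF-Val libraries, against 41.3, 49.0 and 26.0 in the NC libraries. NC 3 lay within the tRF-Val range, so the groups overlapped (log2 fold change -0.90, SE 0.314, limma adjusted p 0.138). Without NC 3 there was no overlap, and the fold change was -1.16 with an adjusted p of 0.0620, which did not pass. Most of it lay in a transcript of 1447 bases, Lamc1-204, which was at 1.19, 1.07 and 23.3 in the tRF-Val libraries and 27.4, 31.0 and 1.78 in the NC libraries. The full-length Lamc1-201, of 7622 bases, was 18.6, 13.2 and 3.32 in the tRF-Val libraries, against 14.0, 18.1 and 24.2 in the NC libraries. In 3 libraries the short form dominated and in the other 3 the long form did, without regard to the group label.

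Lamb1, the beta1 chain, had the highest value of the laminins and a small difference with no overlap: 45.0, 42.3 and 49.3 in the tRF-Val libraries, against 49.6, 51.7 and 58.3 in the NC libraries. The gap between the nearest libraries, tRF-Val 3 and NC 1, was well under the SD within either group, 3.55 in tRF-Val and 4.53 in NC (n = 3 each). The log2 fold change was -0.22 (SE 0.139, limma adjusted p 0.328). One of its 2 transcripts, Lamb1-205, was listed at 0 in each tRF-Val library and at 20.7, 8.93 and 0.278 in the NC libraries. It was listed through NC alone, so a lower tRF-Val mean was fixed by the listing. The other, Lamb1-201, was 45.0, 42.3 and 49.3 in the tRF-Val libraries, against 29.0, 42.8 and 58.0 in the NC libraries, and overlapped.

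Lama5, the alpha chain that joins beta1 or beta2 and gamma1 in the mature tubular basement membrane, was 18.0, 12.6 and 13.6 in the tRF-Val libraries, against 22.4, 19.9 and 8.48 in the NC libraries. Lamb2, the beta2 chain, was 14.0, 8.50 and 9.23 in the tRF-Val libraries, against 12.2, 10.7 and 6.73 in the NC libraries. Both overlapped, with log2 fold changes of -0.10 (SE 0.371) and 0.09 (SE 0.284), or -0.51 and -0.14 without NC 3. In both, NC 3 was the lowest library. Lama4, an alpha chain of vessel and muscle basement membranes, was low at 0.928 to 1.34 in tRF-Val and 0.792 to 1.23 in NC.

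Lamb3 encodes the beta3 chain of an epithelial laminin that hemidesmosomes bind; the alpha chain of that laminin, Lama3, was not analysed here. Lamb3 was 9.17, 6.17 and 8.21 in the tRF-Val libraries, against 8.65, 7.30 and 2.99 in the NC libraries. The groups overlapped, with NC 3 the lowest library, and the log2 fold change of 0.36 (SE 0.365, limma adjusted p 0.533) became -0.03 without NC 3.

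**Figure D3:**
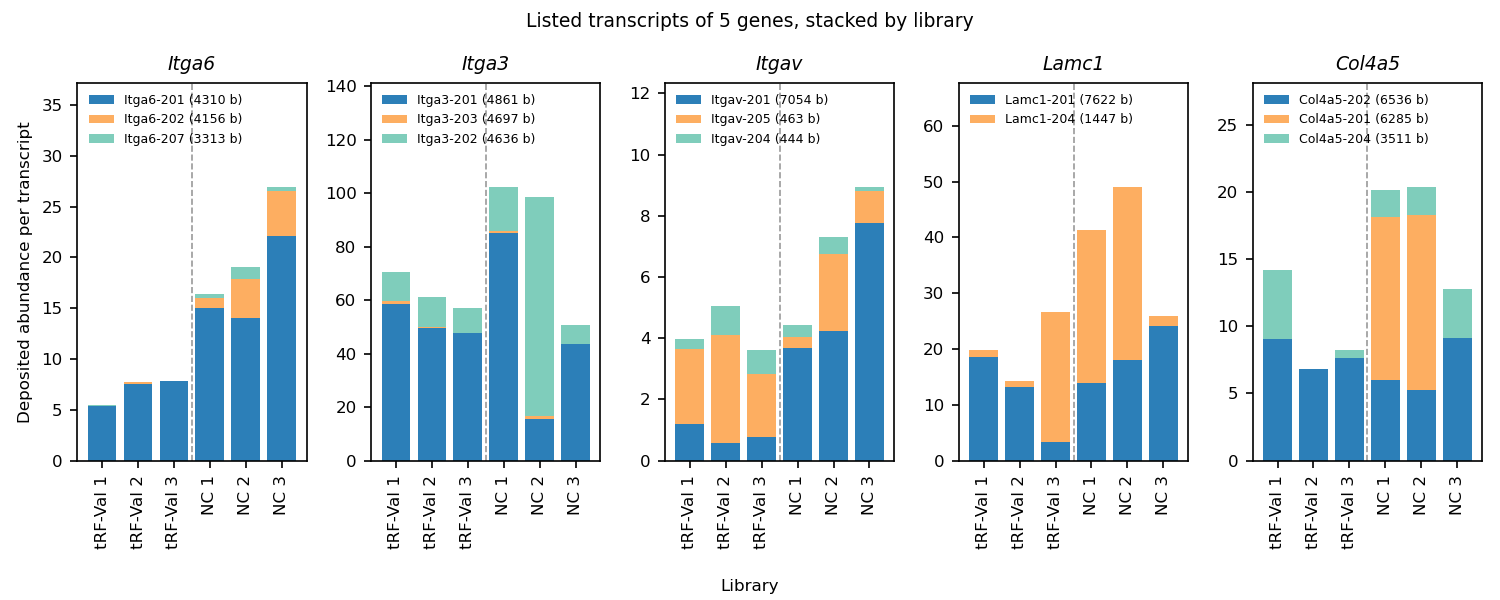
Values of the listed transcripts of Itga6, Itga3, Itgav, Lamc1 and Col4a5, stacked by library, with tRF-Val left of the dashed line and NC right of it. Itga6 is lower in each tRF-Val library in its main form, whereas Lamc1 and Itga3 shift between transcripts within a group and Col4a5-201 appears in NC 1 and NC 2 alone.

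Collagen chains were led by Col18a1, which encodes the basement membrane collagen XVIII, the source of endostatin. It was 86.1, 67.3 and 68.5 in the tRF-Val libraries, against 100.0, 99.0 and 46.8 in the NC libraries. NC 1 and NC 2 lay above each tRF-Val library and NC 3 below, and the log2 fold change was -0.07 (SE 0.320) with all libraries and -0.43 without NC 3 (limma adjusted p 0.889 and 0.0930).

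Col4a5 and Col4a6 encode collagen IV chains that are assembled together in basement membranes and lie next to each other, in opposite directions, on chromosome X; in humans, mutations of COL4A5 cause Alport syndrome. Col4a5 was 14.2, 6.83 and 8.25 in the tRF-Val libraries, against 20.1, 20.4 and 12.7 in the NC libraries. Only tRF-Val 1 reached into the NC range, and the log2 fold change was -0.83 (SE 0.312, limma adjusted p 0.156). The transcript Col4a5-201 was listed at 0 in each tRF-Val library and at 12.2, 13.0 and 0 in the NC libraries. This transcript too was listed through NC alone, which fixed its direction. The transcript Col4a5-202, of 53 exons where Col4a5-201 has 54, was 9.02, 6.83 and 7.65 in the tRF-Val libraries, against 5.97, 5.27 and 9.14 in the NC libraries. Col4a6 was 10.2, 6.95 and 6.28 in the tRF-Val libraries, against 12.2, 9.84 and 4.73 in the NC libraries, with a log2 fold change of -0.11 (SE 0.354), or -0.46 without NC 3. The main chains of collagen IV, Col4a1 and Col4a2, were not analysed here.

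None of the other collagens passed. Col5a1, a fibril-forming chain that sets fibril width, was 7.10, 5.91 and 6.46 in the tRF-Val libraries, against 9.77, 9.88 and 4.23 in the NC libraries. Col7a1, the collagen of anchoring fibrils, was 3.34, 2.96 and 4.45 in the tRF-Val libraries, against 5.37, 6.61 and 2.81 in the NC libraries. Both repeated the pattern of Col18a1, and without NC 3 their fold changes were -0.53 and -0.62 (limma adjusted p 0.0608 and 0.0930). Col6a1 and Col6a2, chains of the beaded filament collagen VI, were 8.35 to 13.6 and 1.45 to 2.08 in tRF-Val, against 7.71 to 17.6 and 1.33 to 2.64 in NC. Their fold changes were -0.26 and -0.13, or -0.55 and -0.32 without NC 3. Col8a1, a short-chain network collagen, and Col12a1 and Col16a1, collagens that attach to fibrils, had means near 1. Their fold changes were -0.20 (SE 0.159), -0.12 (SE 0.229) and 0.04 (SE 0.221).

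**Figure D4:**
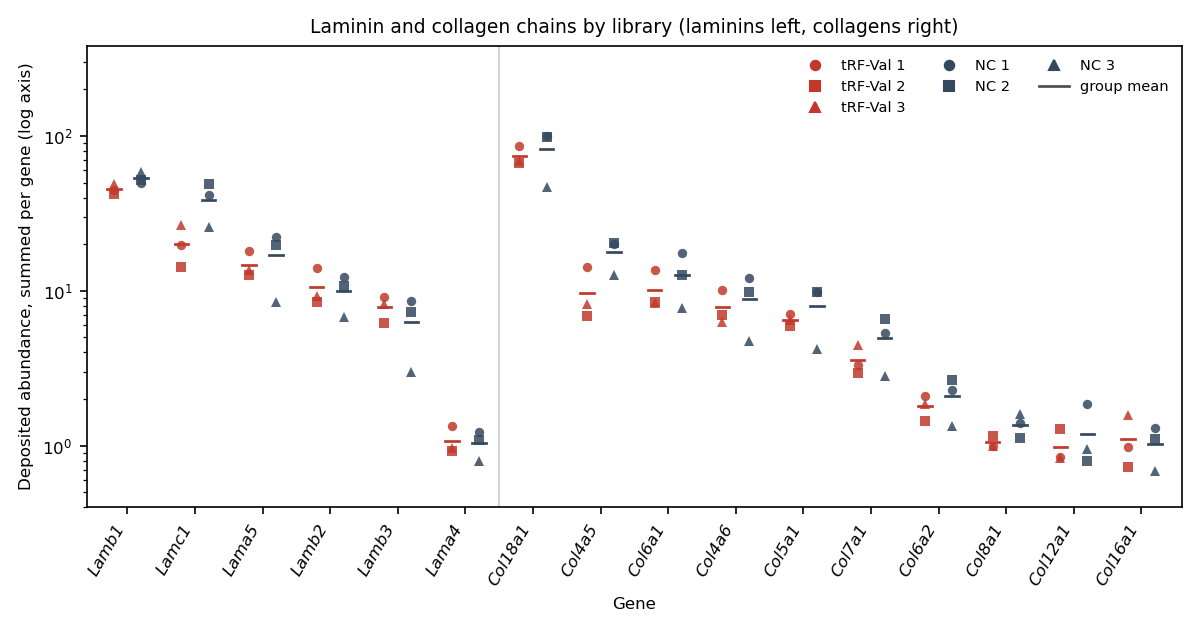
Values of laminin and collagen chains in each library, on a log axis, with the 3 tRF-Val libraries in red left of the 3 NC libraries in dark blue and a bar at each group mean. For Col18a1, Col5a1 and Lama5 the NC 1 and NC 2 points lie above the tRF-Val points and the NC 3 triangle below them.

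NC 3 stood at an end of the range for most of these chains. It was the lowest of the 6 libraries for 17 of 29 chains (58.6%), among them 7 of 10 collagens, where it was lowest for 42.6% of all genes. NC 1 and NC 2 both lay above every tRF-Val library for 14 of 29 chains, against 33.6% of all genes, and for 8 of those 14 NC 3 lay below every tRF-Val library, as it did for 19.2% of the genes with that pattern. The 8 were Col18a1, Col5a1, Col6a2, Col7a1, Itga3, Itga5, Itgb4 and Lama5. The other way, 6 of 29 chains (20.7%) were highest in NC 3, against 25.9% of all genes. They were Itga6, Itgb1, Lamb1, Itgav, Itga2 and Col8a1. With each chain's log2 values set relative to their own mean, the median over tested chains was 0.03, -0.20 and -0.09 in the tRF-Val libraries, against 0.27, 0.27 and -0.32 in the NC libraries. Without NC 3 the median fold change of the chains was -0.38 with 26 of 29 negative, while over all genes the median was -0.08 with 5845 of 10400 negative. NC 3 had both the lowest of the 6 centred medians and the highest share of mitochondrial transcripts, 17.5%. NC 1 and NC 2 had higher shares than the tRF-Val libraries and higher medians. The part of that share in these values was not tested.

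Transcript length also moved with the fold changes. Over 10400 genes the rank correlation (Spearman's rho) of length with fold change came to -0.56, a description across genes that share libraries. The chains are long, with a median length of 4954 bases against 2796 bases over all genes tested, and among the 29 of them rho was -0.06. After each library's trend with length was removed, the median fold change of the chains was 0.27 with 5 of 29 negative, against a median of 0.03 with 4912 of 10400 negative over all genes. With length and GC content removed together it was 0.02 with 14 of 29 negative, against 0.03 with 4777 of 10400 negative over all genes. The 5 that stayed negative after removal of the length trend were Itga6 (-1.14, limma adjusted p 0.166), Itgb1 (-0.57, 0.242), Lamc1 (-0.56, 0.315), Col4a5 (-0.40, 0.401) and Itgav (-0.31, 0.593). None of the 29 passed under either correction.

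**Figure D5:**
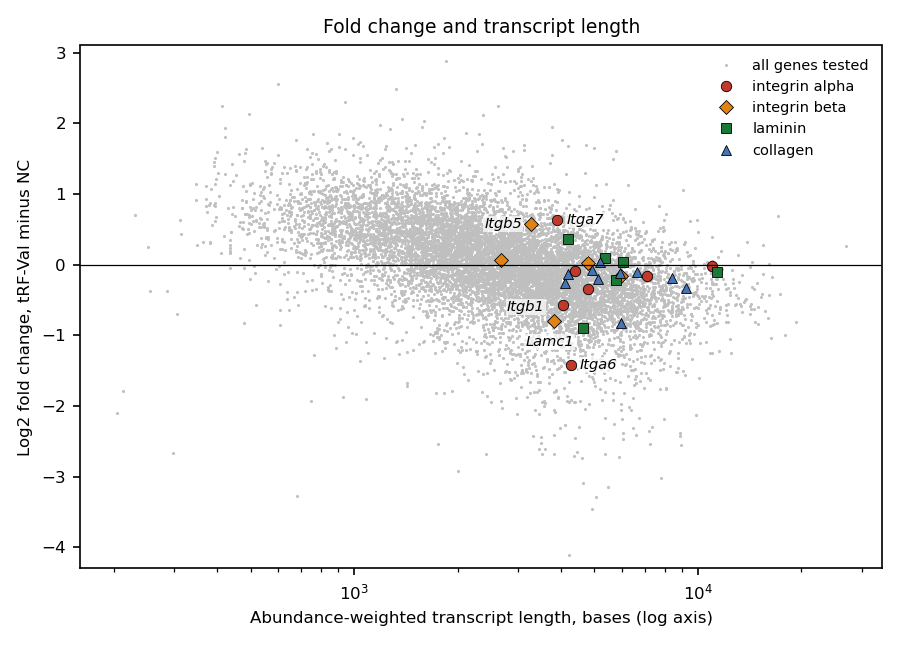
Log2 fold change, tRF-Val minus NC, against transcript length in bases on a log axis, with all 10400 tested genes in grey and tested chains as coloured symbols by family. Longer genes lie lower as a whole, and of the labelled chains Itga6, Itgb1 and Lamc1 lie below 0 and Itgb5 and Itga7 above it.

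The lists of partner genes were chosen with earlier results of these data known, and their counts stand beside those over all genes. With all libraries 0.202% of all genes were called lower and 0.0577% higher, 48.9% were negative and the median fold change was 0.01. Without NC 3, 3.04% were called lower and 2.75% higher, 5845 of 10400 were negative and the median was -0.08. Of 17 other integrin ligands 13 were tested, with 9 negative and a median fold change of -0.54. Without NC 3, 12 of the 13 were negative, the median was -0.61 and 3 were called. With all libraries 1 was called, Ccn2, a matrix-associated protein that binds integrins. Ccn2 was 29.7, 32.3 and 36.9 in the tRF-Val libraries, against 78.1, 79.6 and 92.3 in the NC libraries, and fell by 1.31 on the log2 scale (SE 0.150, limma adjusted p 0.0469). Its fold change was -1.45 to -1.19 over 19 alternatives, and the call was lost in 12 of them, where the limma adjusted p reached 0.177, among them leaving out any library other than NC 3 (adjusted p 0.0620 to 0.171). Next by p were Adam9, a membrane metalloprotease whose disintegrin domain binds integrins, and Fn1, fibronectin. Adam9 was 19.0, 11.5 and 14.4 in the tRF-Val libraries, against 39.2, 39.6 and 45.2 in the NC libraries, with a log2 fold change of -1.43 (limma adjusted p 0.0567). Fn1, the ligand of the alpha5-beta1 pair, was 11.3, 3.41 and 2.69 in the tRF-Val libraries, against 56.5, 36.5 and 47.8 in the NC libraries (adjusted p 0.0575). Neither passed with all libraries, and in both each tRF-Val library lay below each NC library. Adam9 passed without NC 3 (limma adjusted p 0.0420) and Fn1 without tRF-Val 1 (0.0236), and both passed after quantile normalization (0.0454).

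Of 20 basement membrane partners 8 were tested, with 5 negative, a median of -0.28 and 0 called. Agrn, the proteoglycan agrin, was 17.8, 8.89 and 16.7 in the tRF-Val libraries, against 41.2, 43.2 and 20.6 in the NC libraries (log2 fold change -1.20, limma adjusted p 0.121), with a fold change of -0.75 after removal of the length trend. Of 35 genes of collagen biosynthesis 21 were tested, with 8 negative, a median of 0.20 and 0 called. Without NC 3, 12 were negative, the median was -0.0022 and 1 was called, Plod2. Over all genes that fit called 3.04% lower and 2.75% higher. Plod2, a lysyl hydroxylase that prepares collagen for cross-linking, was 17.8, 15.9 and 17.6 in the tRF-Val libraries, against 25.9, 29.9 and 35.6 in the NC libraries (log2 fold change -0.79, limma adjusted p 0.0859, or -0.68 and 0.0458 without NC 3). Ppib, a prolyl isomerase of the endoplasmic reticulum that helps collagen fold, went the other way, at 362, 444 and 359 in the tRF-Val libraries, against 290, 291 and 218 in the NC libraries (log2 fold change 0.55, limma adjusted p 0.128), and its fold change was -0.013 with the length trend removed.

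Of 15 other receptors of laminin and collagen 12 were tested, with 4 negative, a median of 0.12 and 0 called. Ddr2, a collagen receptor kinase, was 9.66, 6.40 and 8.20 in the tRF-Val libraries, against 11.8, 11.7 and 10.9 in the NC libraries (log2 fold change -0.47, limma adjusted p 0.165), and its fold change was -0.0040 with the length trend removed. Of 24 matrix proteases and inhibitors 11 were tested, with 7 negative, a median of -0.10 and 0 called. Without NC 3, 1 was called, Adam9, where 3.04% of all genes were lower and 2.75% higher. Adam9 is described above and had the smallest p of this list with all libraries. Next was Adamts1, at 54.4, 37.3 and 45.5 in the tRF-Val libraries, against 72.7, 69.1 and 65.1 in the NC libraries (log2 fold change -0.60, limma adjusted p 0.110). Timp1, an inhibitor of matrix metalloproteases and next by p, went the other way. It was 107, 151 and 140 in the tRF-Val libraries, against 89.8, 94.6 and 57.4 in the NC libraries (log2 fold change 0.73, limma adjusted p 0.131). Its fold change was 0.16 with the length trend removed.

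The 2 genes that share only the name did not pass either. Itgb3bp was 11.8, 13.7 and 14.2 in the tRF-Val libraries, against 10.2, 8.81 and 16.4 in the NC libraries. Col4a3bp was 9.60, 6.73 and 7.89 in the tRF-Val libraries, against 9.31, 9.84 and 14.1 in the NC libraries. Limma adjusted p were 0.614 and 0.267.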

How the data were processed

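RNA of 6 libraries was extracted with Trizol and sequenced from stranded libraries, per the labels' protocols; the same text speaks of joint capsule tissue, while each sample is labelled as BUMPT cells, which was followed here. The tools named are HISAT2 2.1.0, StringTie and cutadapt, with the human build GRCh38, per the submitters' processing notes; annotation and settings are not given there. The deposited values were treated as a signal, an abundance per transcript taken to be scaled to the library. They are not counts, so no count test was run and the depth is unknown.

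Of 30813 rows, 21603 carry mouse IDs, of which 21551 matched GENCODE M21 (GRCm38) without the version; the 9210 rows with human IDs were not used. Values were added per symbol, giving 11230 genes, and 10400 with a mean of at least 1 were fitted as log2(value + 1) in limma 3.58.1 (R 4.3.3), with trend and robust moderation, both groups in 1 fit, no covariate, and two-sided p-values adjusted by the Benjamini-Hochberg method. An exact permutation test of 3 against 3 cannot go below p = 0.1, so none was used. Members and lists were chosen with earlier results of these data known. Named genes are the 12 tested chains with the smallest p, the 3 highest of each family, and chains of common integrin, laminin and collagen assemblies; others are named as a full account, and 1 laminin chain, kept in the counts, is not reported here. For partner lists, up to 3 genes with the smallest p could be named. Alternatives changed the pseudocount, the filter, scaling, length and GC trends (loess, span 0.3), moderation, the replicate block, the libraries used and the unit; leaving out short transcripts, and NC 3 left out with the length trend removed, were added after seeing the data.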

Additional observations from a re-analysis of the deposited data

How the results depend on the processing

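Counts over all genes moved with most choices, and the cause was not tested. Against 21 lower and 6 higher genes, the counts were 3 and 2 with a pseudocount of 0.1, 0 and 0 with 0.01, 1 and 1 with a mean of at least 5, 49 and 22 after quantile normalization, 23 and 15 at a common median, 30 and 19 with length and GC trends removed, 36 and 9 without the mean-variance trend, 32 and 6 without robust moderation, and 135 and 49 over single transcripts. Leaving out 1 library gave 3 to 316 lower and 0 to 286 higher genes, the highest both without NC 3. Of the chains, 0 to 2 were lower and 0 higher when 1 library was left out; the 2, Itga3 and Itga6, came without NC 3, and 0 chains passed under the other alternatives. The median fold change of the chains was -0.38 to -0.0029 with 1 library left out, -0.38 without NC 3, and 0.27 with the length trend removed.

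Of 23 named chains, 7 kept their direction in every alternative fit on gene values, and 16 did not. The 7 were Col4a5, Itga6, Itga7, Itgav, Itgb1, Itgb5 and Lamc1. Of 432 values, 38 were reversed. Changes of the moderation, the filter or the replicate block leave a fold change as it is, so these alternatives could reverse none. The fit over single transcripts is not part of these counts. With the length trend removed the fold changes that reversed were 0.29 for Col18a1, 0.34 for Col4a6, 0.28 for Col5a1, 0.0063 for Col6a1, 0.15 for Col6a2, 0.14 for Col7a1, 0.17 for Col8a1, 0.30 for Itga2, 0.010 for Itga3, 0.21 for Itga5, 0.27 for Itgb4, 0.35 for Lama5 and 0.20 for Lamb1. Of partner genes, Ppib was -0.013 with the length trend removed and -0.015 with length and GC trends removed, and Ddr2 was 0.049 with the second. With length and GC trends removed the chains that reversed were 0.16 for Col4a6, 0.032 for Col5a1, 0.25 for Col8a1, 0.39 for Itga2, 0.16 for Lama5 and 0.066 for Lamb1. With NC 3 left out and the length trend removed, chosen after seeing the data, they were 0.026 for Col6a2, 0.27 for Col8a1, 0.37 for Itga2, 0.016 for Itgb4 and 0.28 for Lamb1. Leaving out 1 library gave -0.43 to 0.11 for Col18a1, -0.46 to 0.13 for Col4a6, -0.32 to 0.0044 for Col6a2, -0.54 to 0.14 for Itga5, -0.43 to 0.020 for Itgb4, -0.026 to 0.054 for Itgb6, -0.51 to 0.14 for Lama5, -0.14 to 0.25 for Lamb2 and -0.032 to 0.61 for Lamb3.

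Same-numbered libraries deviated together with correlations of -0.0297, 0.0160 and -0.0095, so the numbers were not taken to pair them. With the replicate number as a block, 0 genes were lower and 0 higher, and 0 chains passed. The depth is unknown, with 3 libraries a group, so a difference that missed the threshold is not shown to be absent.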
